A study of Homo sapiens with 6 samples.

Results

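Histone genes of the HIST clusters were followed in HCC827 cells, a human lung adenocarcinoma line with mutant EGFR. The members were all protein-coding genes of the deposited table whose symbol starts with HIST1H, HIST2H, HIST3H or HIST4H. There were 71 of them among 60504 rows: 6 of the linker histone H1, 17 of H2A, 18 of H2B, 15 of H3 and 15 of H4. By cluster, 55 were HIST1 genes on chromosome 6, 12 were HIST2 genes and 3 were HIST3 genes on chromosome 1, and HIST4H4 stood alone on chromosome 12.

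Gene expression was compared between 3 libraries of 3D culture and 3 libraries of 2D culture. The 3D cells formed tumoroids within drops of Matrigel, an extract of basement membrane used here in its growth factor reduced form, seeded with 50000 cells and kept for 12 to 16 days. The 2D cells grew as a monolayer in uncoated flasks, seeded with 1000000 cells and kept for 4 to 6 days. Both groups were untreated, came from the same line and received the same medium with serum. The 2 cultures thus differed in duration, seeding number and the presence of gel as well as in geometry, and the parts of these cannot be told apart. Nothing in the labels states that replicates were cultured separately, so each p-value reflects just the scatter among these libraries, possibly technical.

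Pairs of H2A and H2B and pairs of H3 and H4 form the protein core around which nuclear DNA is wound, and H1 binds the linker DNA between cores. Most HIST genes are replication-dependent: cells transcribe them in S phase, and their mRNA ends in a conserved stem-loop, bound by SLBP, rather than in a poly(A) tail. Some of them can also be read through to a downstream poly(A) signal, and such tailed histone transcripts are known from differentiated and slowly dividing cells. The libraries were made from poly(A) RNA, so the values below are those of transcripts that poly(A) selection retained. How much untailed mRNA, ending at the stem-loop, carried over into the libraries was not tested.

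The element that separates the 2 kinds of mRNA was read from the GENCODE 29 transcripts of the members. It is shown for abundant members in which the search found it, and for HIST4H4. HIST2H4A and HIST2H4B, also abundant at means of 15.9 and 12.4 TPM, have annotated 3′ UTRs of 245 and 741 bases without a match. Sites of HIST1H2BG, HIST1H3H and further members are not shown. The sites are shown because they mark where the untailed mRNA would end, upstream of the tail that the libraries selected. Capitals mark the stem-loop, with 5 bases on each side, 5′ to 3′ on the mRNA strand of GRCh38.
HIST2H2AA3 (chr1:149842223-149842238, minus strand): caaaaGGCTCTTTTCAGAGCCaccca
HIST1H2AC (chr6:26124669-26124684, plus strand): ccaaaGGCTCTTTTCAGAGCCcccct
HIST1H2BC (chr6:26123472-26123487, minus strand): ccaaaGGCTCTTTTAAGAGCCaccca
HIST1H2BD (chr6:26158587-26158602, plus strand): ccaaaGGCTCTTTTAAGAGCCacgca
HIST2H2BE (chr1:149886188-149886203, minus strand): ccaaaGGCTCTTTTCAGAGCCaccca
HIST3H2A (chr1:228457369-228457384, minus strand): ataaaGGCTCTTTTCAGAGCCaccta
HIST1H4J (chr6:27824459-27824474, plus strand): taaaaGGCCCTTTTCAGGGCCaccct
HIST4H4 (chr12:14770724-14770739, minus strand): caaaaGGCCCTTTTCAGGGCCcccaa
The stem-loop was found in 29 of the 36 members with an annotated 3′ UTR, and 35 of the 71 members had no 3′ UTR in the annotation. Of these 29 stem-loops, 17 had the letters seen in HIST2H2AA3, 5 had those of HIST1H2BC and 5 had those of HIST1H4J. All 5 genes with the HIST1H4J form encode H4.

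A poly(A) signal, AATAAA or ATTAAA within the last 50 bases of a transcript and after any stem-loop, was found in 21 members, of which 19 also held the stem-loop. The signals lay at very different distances, as these sites show with the signal in capitals and 5 bases on each side.
HIST2H2AA3 (chr1:149842204-149842209, minus strand): tttcaAATAAAagagt
HIST1H2AC (chr6:26139088-26139093, plus strand): gaggtAATAAAaggta
HIST1H2BC (chr6:26114890-26114895, minus strand): acaaaATTAAAataac
HIST1H2BD, first (chr6:26158615-26158620, plus strand): ttttcAATAAAtgagt
HIST1H2BD, last (chr6:26171325-26171330, plus strand): taattAATAAAatctg
HIST2H2BE (chr1:149884477-149884482, minus strand): ttattAATAAAgttac
HIST3H2A (chr1:228456997-228457002, minus strand): ctgatATTAAAagtat
In HIST2H2AA3 the signal followed the stem-loop at once, with 35 bases from the end of the stem-loop to the end of the transcript. In HIST2H2BE the stem-loop lay 1729 bases before the transcript end. HIST1H2AC and HIST1H2BC reached their signals in a second exon. HIST1H2BD had 1 signal just after the stem-loop and another in a second exon, at the ends of different transcripts. HIST1H4J, among the most abundant members, had no signal in its annotated transcript, which ends 6 bases after the stem-loop. Of the 28 members that averaged 1 TPM or more, 16 held a poly(A) signal, against 5 of the 43 members below that level. An annotated 3′ UTR was lacking in 4 of the same 28 members and in 31 of the 43, so that most members of the lower group could not show a signal by this search. HIST1H2BK and HIST1H1C, which follow HIST2H2AA3 in abundance, are annotated without a 3′ UTR.

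Values were TPM, a share of transcripts per length that sums to the same total in each library and keeps no sequencing depth, so depth is unknown and no counting interval is given. An entry of 0 is read only as a gene being listed at 0. All 8 markers of the lung adenocarcinoma line (EPCAM, KRT8, KRT18, KRT19, CDH1, EGFR, NKX2-1 and NAPSA) exceeded 10 TPM. The summed level of 6 fibroblast markers was 6.99 to 12.1 TPM in 3D libraries and 2.10 to 2.96 TPM in 2D libraries, led by COL1A1, with COL3A1 at 0 in every library. The summed level of 6 leukocyte markers was 48.6 to 90.3 TPM in 3D and 71.2 to 100.5 TPM in 2D, nearly all of it CD68, with PTPRC at most 0.25 TPM. The summed level of 5 endothelial markers was 1.51 to 4.01 TPM in 3D and 0.68 to 1.48 TPM in 2D. The part of such markers in the histone values was not tested. The replicates numbered 3 stood apart within both cultures: across genes, Pearson's r of log2(TPM + 1) was 0.957 and 0.960 between 2D replicate 3 and the other 2D libraries, which reached 0.980 with each other. In 3D, replicate 3 reached 0.966 and 0.962 with the other libraries, which reached 0.973 with each other. Results that rest on these libraries are given with and without them.

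The HIST genes were a small part of the measured RNA. Their summed level was 272.1, 255.7 and 337 TPM in the 3D libraries, against 244.2, 247.8 and 243.7 TPM in the 2D libraries, with means of 288 ± 43.0 and 245 ± 2.24 TPM (SD, n = 3 each). Every 3D library was above every 2D library, 3D replicate 3 was the highest, and the 2D libraries were nearly equal. The ratio of the means was 1.18, and without the single most abundant gene the means were 231 TPM in 3D and 208 TPM in 2D with overlapping libraries. These sums, and those by type and cluster below, are of TPM without rescaling between libraries. Median-ratio scaling moved the median log2 fold change of all genes from 0.12 to -0.03. Whether the summed levels stay apart under such scaling was not tested. The 12 histone genes outside the clusters that were examined beside them, such as the variant genes H2AFZ and H3F3A, summed to 2105 to 2801 TPM in 3D and 1942 to 2324 TPM in 2D. Fewer cells that make a transcript and less of it per cell cannot be told apart in such bulk RNA.

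A few members held most of this level. The 10 most abundant accounted for 78.0% of the summed TPM of all members, 8 members averaged at least 10 TPM over the 6 libraries, and 20 averaged between 1 and 10 TPM. A further 36 were listed above 0 in some library with a mean under 1 TPM. HIST1H2AA, HIST1H1A, HIST1H2BA, HIST2H3PS2, HIST3H3, HIST1H4G and HIST1H2BM were at 0 in all 6 libraries, and among them HIST1H2AA, HIST1H2BA and HIST3H3 are known as testis genes. The number of members above 0 was 48, 48 and 52 in the 3D libraries and 47, 56 and 58 in the 2D libraries.

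**Figure D1:**
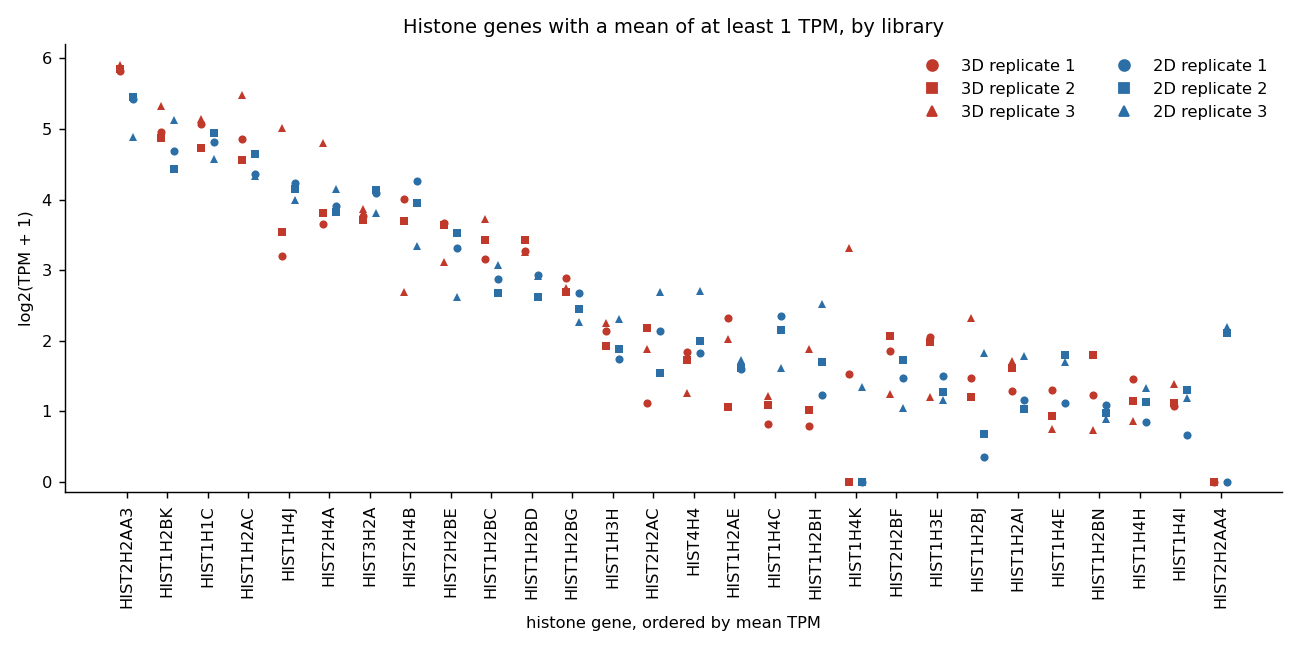
TPM of the 28 histone genes that averaged 1 TPM or more, as log2(TPM + 1) on the vertical axis, with 3D libraries in red left of 2D libraries in blue and the replicate number given by the symbol. HIST2H2AA3 leads with 55.8 to 59.1 TPM in 3D against 28.6 to 42.8 TPM in 2D, and replicate 3 of 3D (red triangles) departs from its group in HIST1H4J, HIST1H4K and HIST2H4A.

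Between the cultures, 0 of the 28 tested HIST genes passed the test as higher in 3D and 1, the H4 gene HIST1H4C, passed as lower. The test was limma on log2(TPM + 1) over all 15042 genes that averaged 1 TPM or more, with Benjamini-Hochberg adjustment and a threshold of 0.05. Over all these genes 10.2% were called higher and 2.12% lower in 3D. At an unadjusted p under 0.05 the members reached 5 of 28, or 17.9%, against 31.4% of all tested genes. Among the 5 is HIST2H2AA4, which is listed at 0 in all 3D libraries and passed the filter only through its 2D libraries. The fitted log2 fold changes of the 28 members had a median of 0.17 and ran from -1.43 to 1.17, with 19 above 0 and 9 below, beside a median of 0.12 over all tested genes. The split was 16 above and 12 below under median-ratio scaling and 13 above and 15 below under quantile normalization, where the medians over all genes were -0.03 and -0.04. Over all tested genes 9150 of 15042 were above 0, against 7047 of 15028 and 7024 of 15042 under these scalings. A total of 43 members were below the filter and were not tested, HIST1H2AG at 0.992 TPM being the first outside and HIST2H2AA4 at 1.15 TPM the last inside it. These changes are differences of log2(TPM + 1), which understate the fold change of low genes.

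Groups that did not overlap occurred in 5 of the 28 tested members, or 17.9%, against 36.7% of all tested genes. HIST2H2AA3, HIST1H2BC, HIST1H2BD and HIST1H2BG were the 4 with all 3D libraries above all 2D libraries, a pattern of 27.3% of all tested genes. HIST1H4C was the 1 member with all 3D libraries below, a pattern of 9.4% of all tested genes. None of the 4 higher members passed the adjusted threshold.

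**Figure D2:**
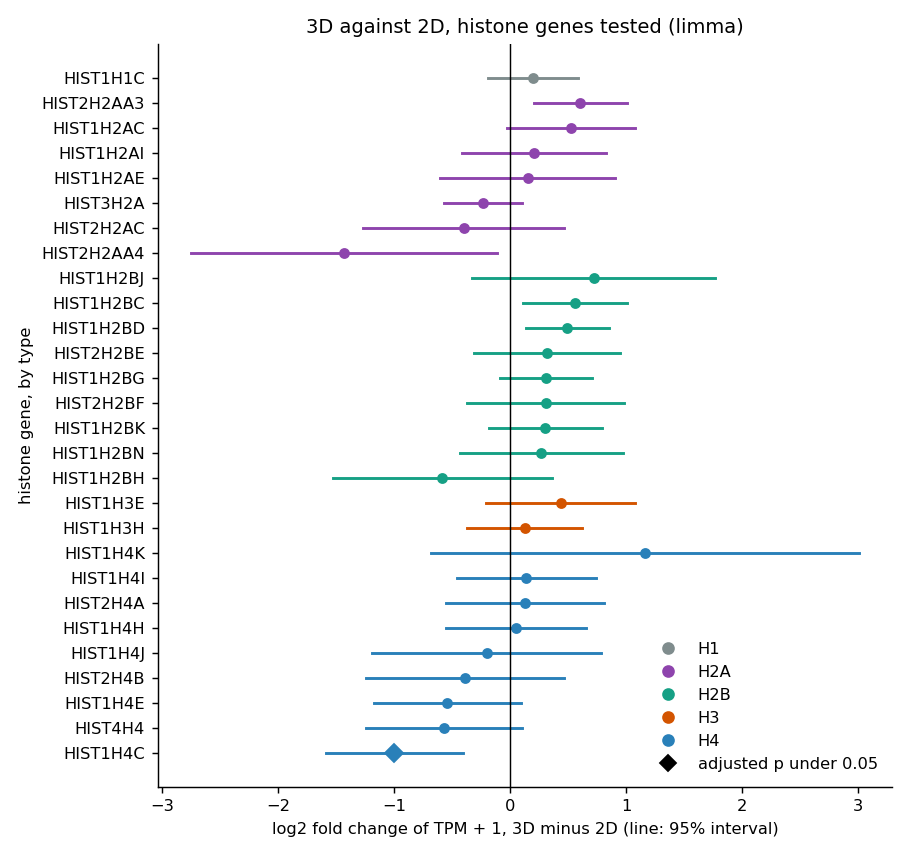
Fitted log2 fold change of TPM + 1 in 3D minus 2D for the 28 tested histone genes, grouped and coloured by histone type, with 95% intervals from limma as lines. HIST1H4C, drawn as a diamond, is the only one called, while the other intervals that exclude 0 (HIST2H2AA3, HIST1H2BC, HIST1H2BD and HIST2H2AA4) did not pass the adjusted threshold. Of these, HIST2H2AA4 passed the filter only through its 2D libraries.

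HIST1H4C encodes H4 and lies at chr6:26103876-26104310 on the plus strand of GRCh38, in 1 exon. Its level was 0.77, 1.12 and 1.33 TPM in 3D libraries, against 4.10, 3.46 and 2.07 TPM in 2D libraries. All 3D libraries lay below all 2D libraries, and 2D replicate 3 was the 2D library nearest to them. The means were 1.07 ± 0.283 TPM in 3D and 3.21 ± 1.04 TPM in 2D (SD, n = 3 each), and the gene fell by 1.00 on the log2 scale with a standard error of 0.25, a 95% interval of -1.59 to -0.41 and a limma adjusted p of 0.0433. No 75-nt window of its transcripts was found in another gene's transcripts, and neither the stem-loop nor a poly(A) signal was found in its annotated 3′ end. The sign was negative in all 16 alternative settings that tested the gene, with limma adjusted p from 0.0151 to 0.148, and 9 of them called it. It was no longer called without 3D replicate 1 (limma adjusted p = 0.146), 3D replicate 2 (0.121), 3D replicate 3 (0.0521), 2D replicate 1 (0.128) or 2D replicate 2 (0.148), nor with genes of all levels included (0.124). It was not called in 1 further alternative, the replicate number as a block, either.

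H4 genes differed widely from each other. Of the 15, 9 were tested, 0 were called higher and 1 lower, and the fitted log2 fold changes had a median of -0.20 with 4 above and 5 below 0. Under median-ratio scaling 2 were above and 7 below, with a median of -0.37, and under quantile normalization 1 was above and 8 below, with a median of -0.39. All but HIST1H4G encode 1 identical protein, so the RNA of 14 genes adds up to the same H4. Their summed level was 45.6, 43.1 and 78.4 TPM in 3D, against 60.6, 57.3 and 56.4 TPM in 2D. The first and second 3D libraries were below all 2D libraries and 3D replicate 3 was above them all, so the groups overlapped. The fitted log2 fold change of the sum was -0.11, with a standard error of 0.23 and a limma adjusted p of 0.761.

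Near-identical copies set a limit for the most abundant H4 genes. HIST1H4J, the leading H4 gene, had 8.23, 10.6 and 31.4 TPM in 3D, against 17.8, 16.7 and 14.9 TPM in 2D. The 3D replicates 1 and 2 were below and 3D replicate 3 far above every 2D library (log2 fold change -0.20, standard error 0.42, limma adjusted p = 0.772). Without 3D replicate 3 the gene was called lower, with a log2 fold change of -0.75 and a limma adjusted p of 0.0376, and without both libraries numbered 3 the values were -0.82 and 0.0198. The range of its limma adjusted p over all alternatives was 0.0198 to 0.991. Every 75-nt window of the copy HIST1H4K, the length of the reads, also occurs in HIST1H4J, and reads from these windows cannot be assigned between them. Of the windows of HIST1H4J, 79.6% are shared with HIST1H4K. HIST1H4K was listed at 1.87, 0 and 8.93 TPM in 3D, against 0, 0 and 1.53 TPM in 2D. Both were highest in 3D replicate 3, and their sum was 10.1, 10.6 and 40.3 TPM in 3D, against 17.8, 16.7 and 16.4 TPM in 2D.

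HIST2H4A and HIST2H4B are a second such pair of H4 genes, sharing 96.2% and 97.1% of their windows with each other. HIST2H4A was listed at 11.6, 13.0 and 26.8 TPM in 3D and at 14.1, 13.1 and 16.7 TPM in 2D. HIST2H4B was listed at 15.0, 11.9 and 5.46 TPM in 3D and at 18.2, 14.5 and 9.15 TPM in 2D. In both libraries numbered 3 the first copy was high where the second was low, and their sum was 26.7, 24.9 and 32.3 TPM in 3D, against 32.3, 27.6 and 25.9 TPM in 2D. The sums overlapped and their means were 27.9 ± 3.84 TPM in 3D and 28.6 ± 3.30 TPM in 2D (SD, n = 3 each). Each also overlaps an H3 gene on the other strand, HIST2H3C or HIST2H3A, and the strand setting of the counting is not given in the sources used here.

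**Figure D3:**
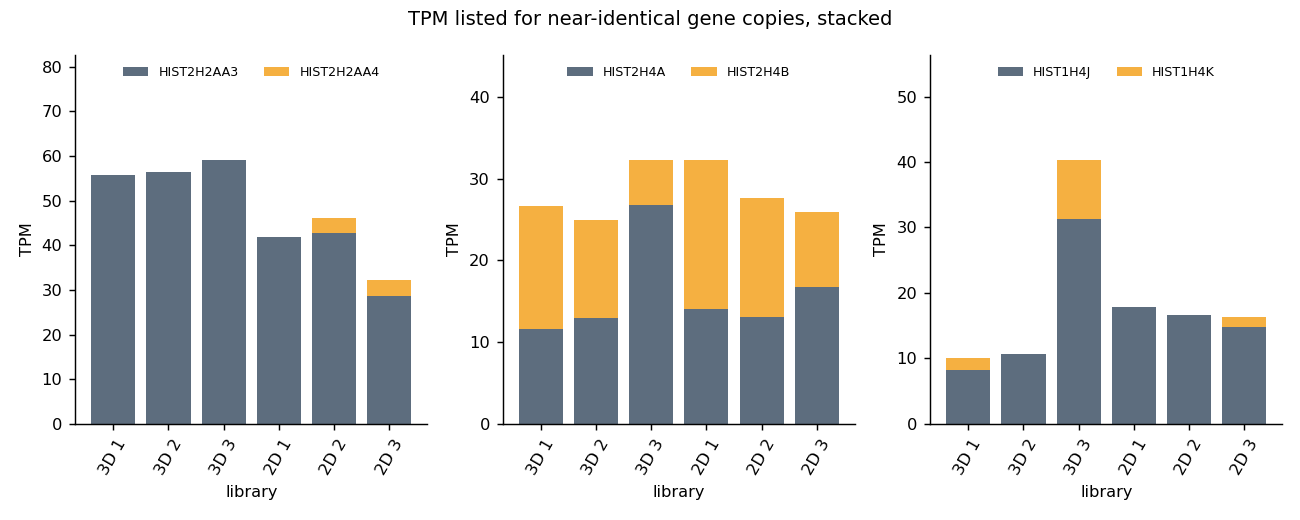
TPM listed for 3 pairs of near-identical histone genes in each library, 3D libraries left of 2D libraries, with the second copy stacked on the first. The summed bar of HIST1H4J and HIST1H4K reaches 40.3 TPM in 3D replicate 3 and 10.1 to 17.8 TPM elsewhere, while the split between HIST2H4A and HIST2H4B differs between libraries more than their sum does.

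The remaining H4 genes were low. HIST4H4, the gene on chromosome 12, had 2.59, 2.31 and 1.38 TPM in 3D, against 2.53, 3.00 and 5.54 TPM in 2D. The groups overlapped and 2D replicate 3 was highest (log2 fold change -0.57, standard error 0.29, limma adjusted p = 0.220). HIST1H4E, HIST1H4H and HIST1H4I averaged between 1 and 2 TPM, and none was called.

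H2A took the largest share of the summed level, 37.1%, and 7 of its 17 genes were tested, with 0 called higher and 0 called lower. At an unadjusted p under 0.05, 2 of the 7 were counted, beside 31.4% of all tested genes. They were HIST2H2AA3, above 0, and its near-identical copy HIST2H2AA4, below 0, which passed the filter only through its 2D libraries. The summed level of the type was 105.6, 98.9 and 127.2 TPM in 3D, against 88.1, 95.2 and 79.4 TPM in 2D. All 3D libraries were above all 2D libraries, by a ratio of means of 1.26. The fitted log2 fold changes had a median of 0.15, with 4 above and 3 below 0. The sign of that median turned under quantile normalization, with 2 above, 5 below and a median of -0.07. It also turned without 3D replicate 3, to -0.12, where 8 H2A genes passed the filter, 4 above and 4 below 0.

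HIST2H2AA3, a canonical H2A gene at chr1:149842188-149842736 on the minus strand and the most abundant of all members, carries much of that. Its level was 55.8, 56.4 and 59.1 TPM in 3D, against 41.8, 42.8 and 28.6 TPM in 2D. The groups did not overlap, the 3D libraries lay close together and 2D replicate 3 was the lowest. The log2 fold change was 0.61, with a standard error of 0.17 and a 95% interval of 0.20 to 1.01, and missed the threshold with a limma adjusted p of 0.0595. Over the alternatives that p ranged from 0.0483, with the genes of the mitochondrial genome left out, to 0.160, and the log2 fold change from 0.40 to 0.71. Its copy HIST2H2AA4, which encodes an identical protein and shares 96.9% of its windows, was listed at 0, 0 and 0 TPM in 3D, against 0, 3.32 and 3.56 TPM in 2D. HIST2H2AA4 was the member with the most negative fitted change and was called only without 2D replicate 1 (log2 fold change -2.15, limma adjusted p = 0.0138), a library where it is listed at 0. The 2 copies together had 55.8, 56.4 and 59.1 TPM in 3D, against 41.8, 46.2 and 32.2 TPM in 2D, without overlap (log2 fold change 0.52, standard error 0.16, limma adjusted p = 0.0685).

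HIST1H2AC, another canonical H2A gene, had 28.1, 22.7 and 43.7 TPM in 3D, against 19.5, 24.1 and 19.2 TPM in 2D. The highest values were in 3D, in replicate 3 above all, and 3D replicate 2 lay below 2D replicate 2 (log2 fold change 0.52, standard error 0.24, limma adjusted p = 0.178). HIST3H2A, the H2A gene of the HIST3 cluster, had 12.7, 12.0 and 13.6 TPM in 3D, against 16.1, 16.5 and 13.0 TPM in 2D. The groups overlapped through 3D replicate 3 and 2D replicate 3 alone (log2 fold change -0.23, standard error 0.14, limma adjusted p = 0.308). Among the tested H2A genes, HIST2H2AC, HIST1H2AE and HIST1H2AI averaged 1.75 to 3.03 TPM with overlapping groups. Below the filter, HIST1H2AM had 0.44, 0.23 and 0 TPM in 3D, against 1.76, 1.86 and 1.17 TPM in 2D, and HIST1H2AH was listed at 0 in all 3D libraries, against 0.97, 0.41 and 0.34 TPM in 2D. In both of these low genes the 3D libraries were below all 2D libraries. HIST1H2AM shares 85.3% of its windows with HIST1H3J or HIST1H2AK.

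H2B genes mostly had the same sign. Of its 18 genes 9 were tested, 0 were called higher and 0 lower, and 8 of the 9 fitted log2 fold changes were above 0, with a median of 0.31. The count of 8 was the same under median-ratio scaling and quantile normalization, with medians of 0.17 and 0.10, beside medians of -0.03 and -0.04 over all genes tested. Above 0 among all tested genes were 9150 of 15042, against 7047 of 15028 and 7024 of 15042 under these scalings. At an unadjusted p under 0.05, 2 of the 9 were counted. The summed level was 73.5, 75.6 and 84.8 TPM in 3D, against 58.6, 55.6 and 70.1 TPM in 2D. All 3D libraries were above all 2D libraries, and replicate 3 was the highest within each culture.

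HIST1H2BK led the H2B genes with 30.1, 28.4 and 38.9 TPM in 3D, against 24.9, 20.5 and 33.8 TPM in 2D. Replicate 3 was highest in both cultures and the groups overlapped (log2 fold change 0.30, standard error 0.21, limma adjusted p = 0.353). It shares 50.5% of its windows with other genes, mainly with H2BFS, an H2B gene outside the clusters. H2BFS was listed at 5.74, 5.42 and 10.6 TPM in 3D and at 4.60, 7.04 and 7.71 TPM in 2D.

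HIST1H2BD had 8.61, 9.75 and 8.58 TPM in 3D, against 6.63, 5.17 and 6.55 TPM in 2D. The groups did not overlap and the spread within each was small (log2 fold change 0.49, standard error 0.15, limma adjusted p = 0.0764). HIST1H2BC had 7.93, 9.70 and 12.2 TPM in 3D, against 6.34, 5.40 and 7.42 TPM in 2D. Again the groups were apart, by the gap between 3D replicate 1 and 2D replicate 3 (log2 fold change 0.56, standard error 0.19, limma adjusted p = 0.0982). HIST1H2BG had 6.39, 5.46 and 5.70 TPM in 3D, against 5.39, 4.48 and 3.80 TPM in 2D. Its groups were apart by less than the spread within 3D (log2 fold change 0.31, standard error 0.17, limma adjusted p = 0.253). Neither HIST1H2BC nor HIST1H2BD was called in any of their 17 alternatives, where limma adjusted p ranged from 0.0770 to 0.264 for HIST1H2BC and from 0.0693 to 0.231 for HIST1H2BD. HIST2H2BE had 11.8, 11.4 and 7.64 TPM in 3D, against 8.92, 10.6 and 5.14 TPM in 2D. In each culture replicate 3 was the lowest, and the groups overlapped (log2 fold change 0.32, standard error 0.27, limma adjusted p = 0.449). The 1 tested H2B gene with a negative fitted change, HIST1H2BH, had 0.73, 1.02 and 2.68 TPM in 3D, against 1.35, 2.24 and 4.71 TPM in 2D. Its groups overlapped, and replicate 3 was the highest of each culture.

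**Figure D4:**
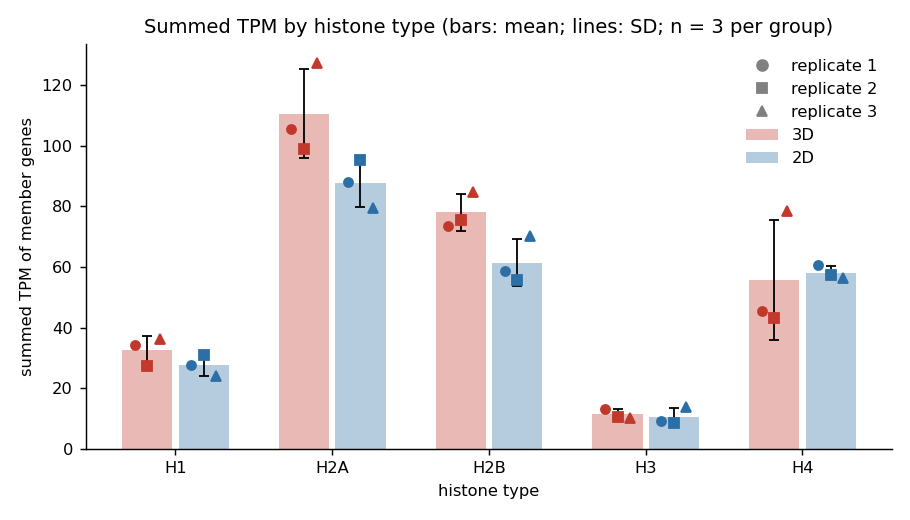
Summed TPM of the member genes of each histone type, with 3D in red left of 2D in blue, where bars are means, lines the SD over 3 libraries and symbols the single libraries. H2A and H2B libraries of 3D lie above all of 2D (means 111 and 87.6 TPM for H2A, 78.0 and 61.4 TPM for H2B), and the H4 groups overlap because of the 78.4 TPM in 3D replicate 3.

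H1 and H3 contributed little apart from 1 gene. HIST1H1C, the gene of linker histone H1.2, had 32.5, 25.5 and 34.2 TPM in 3D, against 27.1, 29.9 and 22.8 TPM in 2D. The groups overlapped (log2 fold change 0.20, standard error 0.17, limma adjusted p = 0.445). It was the 1 tested H1 gene of 6. HIST1H1D, an H1 gene below the filter, had 0.85, 1.14 and 1.21 TPM in 3D, against 0.50, 0.51 and 0.54 TPM in 2D. All its 3D libraries were above all its 2D libraries. Including HIST1H1D, 4 of the 43 untested members had groups that did not overlap, and the other three, HIST1H2AM, HIST1H2AH and HIST1H4B, had the lower values in 3D. Set against the 36 untested members above 0 in some library, these are 1 higher and 3 lower, beside 8.56% higher and 2.75% lower without overlap among all 18882 such genes below the filter.

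H3 summed to 13.2, 10.6 and 10.3 TPM in 3D, against 9.23, 8.66 and 13.7 TPM in 2D, or 4.11% of the level of all members. The groups overlapped, with the extreme of 2D in replicate 3. The most abundant H3 gene, HIST1H3H, had 3.41, 2.79 and 3.76 TPM in 3D, against 2.34, 2.7 and 3.95 TPM in 2D (log2 fold change 0.13, standard error 0.21, limma adjusted p = 0.715). HIST1H3E was the other tested H3 gene and was not called. HIST2H3A and HIST2H3C, which share all their windows, were listed at the same values in every library, 1.33, 1.32 and 0.84 TPM each in 3D and 0.82, 0.68 and 0.87 TPM each in 2D.

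By cluster, the summed level of HIST1 was 155, 138 and 215.7 TPM in 3D, against 134.4, 137.1 and 152.4 TPM in 2D. These groups overlapped, with replicate 3 the highest of each culture. HIST2 summed to 100.9, 102.5 and 105.5 TPM in 3D, against 90.5, 90.4 and 71.7 TPM in 2D. All HIST2 values of 3D were above those of 2D, and HIST2H2AA3 made up most of the cluster's level in 3D. HIST3 summed to 13.6, 12.9 and 14.3 TPM in 3D, against 16.7, 17.4 and 14.1 TPM in 2D, an overlap between 3D replicate 3 and 2D replicate 3 alone.

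Histone genes often stand head to head, an H2A and an H2B gene sharing 1 stretch of promoter. Start sites of 12 pairs of members on opposite strands lay within 1000 bp of each other, most of them such H2A and H2B pairs. The pair HIST1H2BC and HIST1H2AC is shown because it joins 2 of the 10 most abundant members. The sequence is that between their start sites in RefSeq, chr6:26123927-26124171 of GRCh38.p14, 5′ to 3′ on the minus strand, toward HIST1H2BC. Capitals mark matches on either strand to the letters TATAAA of a TATA box, to CCAAT, and to the octamer ATTTGCAT, the site known to be bound by OCT1 in H2B promoters.
HIST1H2BC and HIST1H2AC: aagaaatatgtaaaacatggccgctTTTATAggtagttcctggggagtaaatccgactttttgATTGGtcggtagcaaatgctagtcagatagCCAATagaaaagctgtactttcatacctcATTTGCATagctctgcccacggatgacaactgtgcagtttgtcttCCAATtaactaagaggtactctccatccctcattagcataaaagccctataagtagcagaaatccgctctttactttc
RefSeq promoters, from 250 bases before to 50 after the start, were matched for 66 of the 71 members. The octamer was found on either strand in 26 of 66 (39.4%), among them 14 of 18 H2B and 11 of 16 H2A promoters but 0 of 13 H4 promoters, against 1.77% of all 35116 promoters. CCAAT was found in 84.8% of the members' promoters, including all 18 of H2B and 3 of 13 of H4, against 34.6% of all promoters. TATAAA was found in 66.7%, against 11.5% of all. Windows of head-to-head neighbours overlap, so 1 site can be counted for both genes, as with the octamer of HIST1H2BC and HIST1H2AC. HIST1H3D was matched to the same window as HIST1H2AD. The counts are thus of promoters and not of separate sites, and the matches describe the letters in the windows only.

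The levels of neighbours differed in the 4 pairs that hold an abundant member. HIST1H2BK averaged 29.4 TPM over the 6 libraries and its neighbour HIST1H2AH 0.287 TPM. HIST3H2A averaged 14.0 TPM and its neighbour HIST3H2BB 0.838 TPM. HIST2H2BE averaged 9.24 TPM and HIST2H2AC 3.03 TPM, while HIST1H2BC averaged 8.17 TPM and HIST1H2AC 26.2 TPM. For 2 of these 4 pairs the more abundant gene was the H2B gene and for the other 2 the H2A gene. The pair HIST1H2BC and HIST1H2AC both had higher means in 3D, and neither passed the test. In the other pairs both genes averaged at most 5.20 TPM, among them HIST1H2AA and HIST1H2BA, both at 0.

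The histone genes outside the clusters, most of which make tailed mRNA and encode variants used throughout the cell cycle, were set beside the members. Of 12, 10 were tested, 2 were called higher in 3D and 0 lower, with a median log2 fold change of -0.20. Over all tested genes 10.2% were called higher and 2.12% lower. H1F0, a linker histone known from differentiated and resting cells, had 247.2, 215.1 and 335.3 TPM in 3D, against 163.5, 95.8 and 118.6 TPM in 2D. It rose by a log2 fold change of 1.08 with a standard error of 0.24 and a limma adjusted p of 0.0286, and no 3D library overlapped with 2D. H3F3B, which encodes the replication-independent variant H3.3, had 545, 601 and 694.1 TPM in 3D, against 336.5, 299.3 and 436.2 TPM in 2D. It rose by 0.79 on the log2 scale with a standard error of 0.18 and a limma adjusted p of 0.0305, whereas H3F3A, which encodes the same protein, had a log2 fold change of 0.16 and a limma adjusted p of 0.573. H2AFX, the H2A variant phosphorylated at DNA breaks, had 30.9, 29.6 and 49.6 TPM in 3D, against 57.9, 52.2 and 94.6 TPM in 2D. Its 3D libraries were below all 2D libraries without passing the threshold (log2 fold change -0.87, standard error 0.28, limma adjusted p = 0.0789). The count of 2 higher genes was 1 without 2D replicate 1 and 0 without any one of 3D replicate 1, 3D replicate 2, 3D replicate 3 and 2D replicate 2. It was also 1, H1F0, under median-ratio scaling, and 0 with no filter. Without 3D replicate 3, 2 genes were called lower, H2AFX and H2AFJ, and without both libraries numbered 3 there were 3, with CENPA, the centromeric H3 variant, added.

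Genes that process or transcribe histone mRNA gave 2 called higher and 0 lower of 17, beside 10.2% and 2.12% of all tested genes. Their median log2 fold change was 0.00. ZNF473, a zinc finger protein of the histone 3′-end processing complex, had 11.9, 12.1 and 7.80 TPM in 3D, against 5.76, 4.70 and 4.52 TPM in 2D. All 3D libraries were above all 2D libraries, and the gene rose by 0.94 on the log2 scale (standard error 0.20, limma adjusted p = 0.0266). CASP8AP2, also called FLASH, a factor of the same step, averaged 7.39 ± 0.596 TPM in 3D and 4.64 ± 0.397 TPM in 2D (SD, n = 3 each), a log2 fold change of 0.57 with a limma adjusted p of 0.0459. SLBP, the stem-loop binding protein, averaged 61.1 ± 7.81 TPM in 3D and 74.0 ± 4.10 TPM in 2D (SD, n = 3 each), with a limma adjusted p of 0.203. Leaving out a single library gave 0 or 1 higher genes in this list, by each of the 6 libraries in turn. ZNF473 was the 1 gene called higher under median-ratio scaling and with robust eBayes, and neither was called higher under quantile normalization or with no filter. LSM10, a protein of the U7 particle that cuts histone mRNA, averaged 11.7 ± 0.576 TPM in 3D and 17.5 ± 2.36 TPM in 2D (SD, n = 3 each; limma adjusted p = 0.0518). It was called lower under both scalings, with a filter at a mean of 5 TPM, when 2D replicate 3 was left out, and with neither library numbered 3. Beside 10.2% and 2.12% of all tested genes, 1 of 19 histone chaperones was called higher and 0 lower. It was ATRX, a remodeller that deposits H3.3, with 75.7, 68.6 and 50.5 TPM in 3D, against 32.7, 37.2 and 29.8 TPM in 2D, a log2 fold change of 0.93 with a standard error of 0.18 and a limma adjusted p of 0.0186. The groups did not overlap, and the median over all 19 chaperones was 0.01. The count of 1 higher chaperone was 0 without any one of 3D replicate 1, 3D replicate 2, 2D replicate 1 and 2D replicate 2, and 2 without 2D replicate 3. With no filter it was 0 as well. Called lower without 3D replicate 3 were 2, ASF1B and CHAF1A, chaperones of newly made H3 and H4, and without both libraries numbered 3 HJURP, the chaperone of CENPA, was called as well.

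S phase and replication genes, with which replication-dependent histone transcription is known to be timed, had a median log2 fold change of -0.56, with 32 of 33 below 0. Below 0 among all tested genes were 5892 of 15042. Of the 33, 3 were called lower and 1 higher, beside 2.12% and 10.2% of all tested genes. E2F1, a transcription factor of S phase entry, had 5.72, 6.90 and 12.4 TPM in 3D, against 24.3, 23.9 and 16.9 TPM in 2D (log2 fold change -1.33, limma adjusted p = 0.0244). POLD1 and POLE2, subunits of replicative DNA polymerases, fell by 1.20 and 0.97 on the log2 scale, with limma adjusted p of 0.0157 and 0.0288. The gene called higher was POLA1, the catalytic subunit of DNA polymerase alpha, with 9.15, 8.62 and 8.48 TPM in 3D, against 4.61, 4.13 and 4.81 TPM in 2D. The summed level of the list was 705.9, 752.5 and 1279 TPM in 3D, against 1198, 1265 and 1547 TPM in 2D. The first and second 3D libraries were low, and 3D replicate 3, the library with the high HIST1H4J and HIST1H4K values, lay within the 2D range. Whether the S phase level has a part in any histone value was not tested. Called lower were 21 of the 33 without both libraries numbered 3, 16 without 3D replicate 3, and 0 without any one of 3D replicate 1, 3D replicate 2, 2D replicate 1 and 2D replicate 2. With no filter 0 were called lower, and under median-ratio scaling 6. Over all 15114 genes tested without both libraries numbered 3, 1356 were called lower. The same total stands beside the counts of the other lists in that setting. Totals over all genes with single libraries left out are given below only as a range. The counts of this and the other lists without a single library, such as 3D replicate 3, thus have no share of all genes beside them. They are not read as particular to these lists. The call of POLA1 as higher was lost without any one of 3D replicate 1, 3D replicate 2 and 2D replicate 2.

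**Figure D5:**
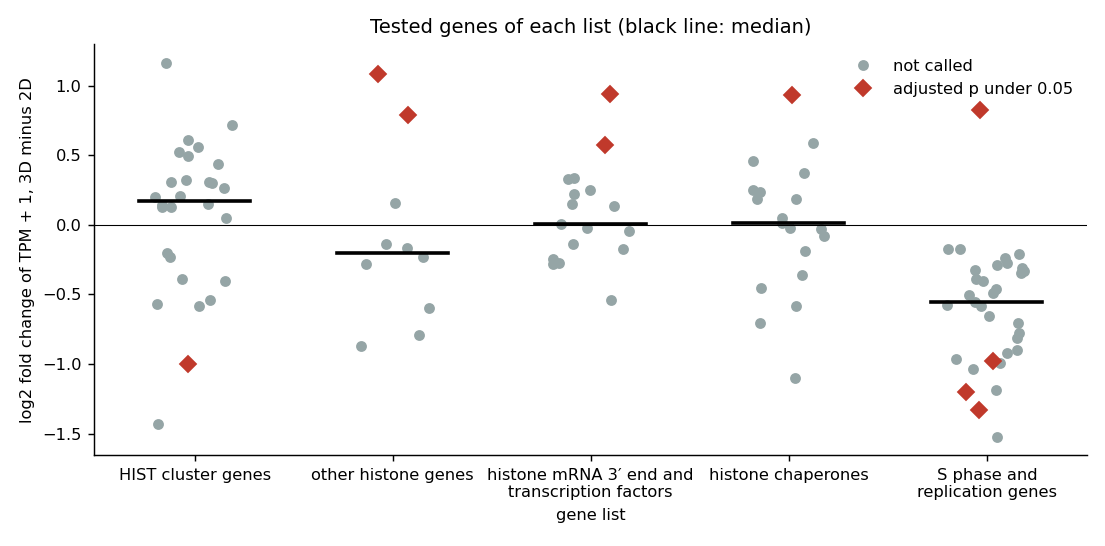
Fitted log2 fold change of TPM + 1 in 3D minus 2D for the tested genes of 5 lists, where each point is a gene, red diamonds are genes with a limma adjusted p under 0.05 and black lines are medians. The HIST cluster genes have a median of 0.17 and the S phase and replication genes one of -0.56, with 32 of 33 genes below 0.

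Without both libraries numbered 3, 28 members were tested, 0 were called higher and 3 lower in 3D, namely HIST1H4C, HIST1H4J and HIST1H2AM. Over all 15114 genes tested in that setting, 2464 were called higher and 1356 lower. The 28 were not the same genes as with all libraries: 8 H2B, 8 H4 and 4 H3 genes were tested, against 9, 9 and 2. HIST1H2AM passed the filter here only through its 2D values of 1.76 and 1.86 TPM, against 0.44 and 0.23 TPM in 3D. Its call is thus not independent of the filter. The median log2 fold change of the 28 members was 0.21, beside 0.12 over all genes tested. HIST1H4J shares windows with HIST1H4K and HIST1H2AM with its neighbours, and of these 3 genes HIST1H4C is the one with no shared window.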

How the data were processed

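Per the labels' protocols, directional libraries were made from poly(A) RNA of DNase-treated samples and read as 75-nt single ends. Expression was deposited by the authors as TPM, in 1 table. Per the submitters' processing notes, the tools were RSEM 1.3.1, STAR 2.7.0d and cutadapt 2.3 and the build hg38, without role or order. Annotation release, strand setting and treatment of reads shared by gene copies are not given in the sources used.

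Groups came from the sample titles. Genes that averaged 1 TPM or more were tested as 3D against 2D on log2(TPM + 1) with limma 3.58.1 (eBayes with trend, two-sided, no covariate) in R 4.3.3, with Benjamini-Hochberg adjustment over all of them, a fit tested on simulated data. The smallest p of an exact test with 3 libraries per group is 0.1, so no gene was tested outside this model. Deviations of same-numbered libraries from their group means correlated at 0.10, 0.04 and 0.19, so numbers were not taken as pairs. The 0.19, between the libraries numbered 3, was the largest value over all combinations of a 3D and a 2D library. Other combinations with a library numbered 3 ran from -0.17 to -0.05. Whether the libraries numbered 3 share a batch was not tested.

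Transcripts came from GENCODE 29, which held all 71 members and 94.2% of the table's identifiers, and promoters from RefSeq on GRCh38.p14. HIST1H4C, HIST1H3J, HIST1H2AH, HIST1H3I and HIST1H4A had no matched promoter. HIST2H4A, HIST2H4B, HIST1H2BD, HIST2H2BF and HIST1H2BN overlap another gene on the opposite strand and are uncertain. Python 3.11.15 with matplotlib 3.10.9 drew the figures.

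Named were called members, the 10 most abundant, the most abundant of each type and cluster, their head-to-head neighbours, and called genes of each companion list. Copies of these, other members, H2BFS, H2AFX, H2AFZ, H2AFJ, CENPA, H3F3A, SLBP, LSM10, ASF1B, CHAF1A and HJURP were named after their values were seen. The members and lists were chosen with earlier results of these data known. Alternatives were pseudocounts, filters, scalings, mitochondrial genes left out, eBayes settings, a replicate block, identical proteins summed and single libraries left out. Leaving out both libraries numbered 3 was added after seeing the data.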

Additional observations from a re-analysis of the deposited data

How the results depend on the processing

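The number of all genes called higher and lower in 3D was 1536 and 319, against 729 and 86 with no filter, 933 and 662 under median-ratio scaling, 869 and 576 under quantile normalization, and 2464 and 1356 without both libraries numbered 3, the last chosen after seeing the data. With single libraries left out the counts ran from 367 to 1607 higher and from 29 to 563 lower. Median-ratio scaling moved the median of all genes to -0.03 from 0.12 and quantile normalization to -0.04, and under the second the histone median was -0.044 rather than 0.17. No HIST gene was called higher in any setting except 1, HIST2H2AA3, with the genes of the mitochondrial genome left out. The count of HIST genes called lower was 1, but 0 with no filter, 0 at a mean of at least 5 TPM, where HIST1H4C is not tested, 0 with identical proteins summed, 2 (HIST1H4C and HIST1H2AM) with the mitochondrial genes left out, 3 without both libraries numbered 3, and 0 to 1 with single libraries left out. With the replicate number as a block it was 0 (HIST1H4C limma adjusted p = 0.0629), beside 1479 higher and 395 lower genes in all. The block also called lower H2AFX, CENPA, ASF1B, HJURP and 14 of 33 S phase genes, and under the pairing check 3D replicate 1 correlated best with 2D replicate 2 rather than with its own number. The libraries numbered 3 correlated best with each other (0.19). Without 3D replicate 3 the 1 lower call was HIST1H4J, and without 2D replicate 1 it was HIST2H2AA4. Where HIST1H2AM and HIST2H2AA4 were called, they passed the filter only through their 2D libraries. Summed over all members the means were 288 TPM in 3D and 245 TPM in 2D, against 231 and 208 TPM without HIST2H2AA3. Over the members that passed the filter the 2D mean was 230 TPM. Sequencing depth is unknown, so no limit from depth can be given for members near 0.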

Other observations

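A further 18 rows of the table carry HIST symbols with pseudogene biotypes and were not members. They summed to 6.61, 14.3 and 7.68 TPM in the 3D libraries, against 7.31, 9.73 and 13.6 TPM in the 2D libraries, and 6 of them were at 0 throughout. HIST2H2BC and HIST2H2BD were the 2 with a mean of at least 1 TPM. HIST2H2BC had 3.21, 3.50 and 3.35 TPM in 3D, against 2.49, 5.73 and 4.99 TPM in 2D, and its groups overlapped. Chosen after its values were seen, HIST1H1PS1 had 0, 0.03 and 0.17 TPM in 3D, against 0.47, 0.86 and 0.80 TPM in 2D, with all 3D libraries below all 2D libraries.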
